A study of Mus musculus with 33 samples.

Results

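A set of 10 autosomal genes of the germ line and of meiosis were followed in mouse embryonic stem (ES) cells labelled WT or RepB. The 10 genes were Sohlh2, Dazl, Ddx4, Hormad1, Sycp3, Mael, Stk31, Mos, Foxr1 and Tex101, out of 24391 genes in the deposited count table. They were picked by name with results of the same libraries in view, in which Mos, Sohlh2, Hormad1, Dazl and Foxr1 had stood out as higher in RepB than in WT during differentiation. The RepB/WT values of the members are therefore given as a description, with no test. The ES cells came from a CAST/Ei x 129/Sv/Jae cross. Per the labels they were grown with LIF on irradiated fibroblast feeders, freed of feeders, kept in suspension as embryoid bodies for 4 days and then plated on gelatin. RepB is a genotype that shares its name with Repeat B of Xist, the noncoding RNA that silences an X chromosome in female cells. The labels describe neither the edit nor the allele that carries it, and they name a single source per genotype. PolyA RNA of undifferentiated cells (day 0) and of cells on days 5, 6, 7, 8 and 10 of the protocol was sequenced, giving 12 libraries, a single one for each line and day. With no separate cultures, the later days of a line stand in for replicates, and the spread between them includes the change over time.

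The smallest library (RepB day 8) had 3594551 counts and the largest (WT day 5) had 17773138. Each RepB library of days 5 to 10 (3594551 to 6977752 counts) was shallower than each WT library of those days (7763633 to 17773138). Depth therefore went with line on the later days, while the day 0 libraries were closer (16888957 in WT and 15231930 in RepB). A count of 3, the smallest amount a library can bound, corresponded to 0.164 to 0.889 CPM (counts scaled so that libraries of unequal depth can be compared), so that a member near or below 1 CPM late in RepB rested on a handful of reads. CPM values use library sizes scaled by the trimmed-mean (TMM) method. The labelled cell type was borne out at day 0, when 15 markers of naive ES cells summed to 6209 CPM (WT) and 7206 CPM (RepB). Fibroblast and feeder markers (8 genes) summed to 680.9 CPM (WT) and 808.7 CPM (RepB) at day 0. The share of feeder RNA in the day 0 libraries was not tested. Of the 10 members, 9 passed the filter on low counts. Tex101 did not, and it was at or below 5 counts in every library.

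Germline genes encode proteins used by primordial germ cells, spermatogonia, oocytes and meiotic cells, and most somatic cells keep them silent. In ES cells and in the early embryo, part of this silencing is laid down by PRC1.6, a Polycomb complex that binds DNA through the E2F6/DP1 and MGA/MAX pairs, together with H3K9 methylation. Promoter DNA methylation is added as cells leave the naive pluripotent state. Naive ES cells are hypomethylated and transcribe a number of these genes at low levels, which is why differentiation is a natural setting in which to follow them.

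Because PRC1.6 acts through sequence, the promoters of the members were examined for the core hexamer of E2F sites, TCCCGC or its complement GCGGGA, and for the palindromic E-box CACGTG read by MGA and MAX. RefSeq promoters of GRCm38.p6, each 300 bases long from 250 before to 50 after the annotated start, were matched for 9 members, all but Mos. An E2F-type hexamer was present in 4 of them and CACGTG in 5. Ddx4, Hormad1, Sycp3 and Mael held both. Across all 32851 promoters of the table, 19.98% held an E2F-type hexamer, 7.15% held CACGTG and 1.99% held both. The members' promoters were richer in CG dinucleotides, with 15 to 38 each against a median of 7, and among the 11378 promoters with at least 15 CG these shares were 45.4%, 11.3% and 5.04%. Dazl, Sohlh2, Foxr1 and Tex101 held neither motif in this window. A match describes letters and is not evidence of binding. The 5 promoters that held CACGTG are shown 5′ to 3′ on the strand of the gene, with the motifs in capitals, since 4 of them hold both motifs and show where these lie. The promoter of Stk31 holds CACGTG alone. They are chr13:112652261-112652560 on the minus strand (Ddx4), chr3:95559427-95559726 on the plus strand (Hormad1), chr10:88459337-88459636 on the plus strand (Sycp3), chr1:166238695-166238994 on the minus strand (Mael) and chr6:49395289-49395588 on the plus strand (Stk31).
Ddx4: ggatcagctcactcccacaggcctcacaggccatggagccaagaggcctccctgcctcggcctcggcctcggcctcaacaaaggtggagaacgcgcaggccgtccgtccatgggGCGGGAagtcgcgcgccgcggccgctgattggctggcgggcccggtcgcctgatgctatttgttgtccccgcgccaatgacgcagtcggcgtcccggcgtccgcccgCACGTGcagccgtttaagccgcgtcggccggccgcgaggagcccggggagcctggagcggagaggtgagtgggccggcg
Hormad1: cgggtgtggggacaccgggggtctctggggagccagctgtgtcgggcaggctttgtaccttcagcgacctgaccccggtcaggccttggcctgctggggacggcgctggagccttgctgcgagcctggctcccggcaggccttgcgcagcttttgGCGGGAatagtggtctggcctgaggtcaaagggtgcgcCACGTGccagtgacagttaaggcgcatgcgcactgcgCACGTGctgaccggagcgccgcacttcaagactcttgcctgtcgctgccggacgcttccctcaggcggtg
Sycp3: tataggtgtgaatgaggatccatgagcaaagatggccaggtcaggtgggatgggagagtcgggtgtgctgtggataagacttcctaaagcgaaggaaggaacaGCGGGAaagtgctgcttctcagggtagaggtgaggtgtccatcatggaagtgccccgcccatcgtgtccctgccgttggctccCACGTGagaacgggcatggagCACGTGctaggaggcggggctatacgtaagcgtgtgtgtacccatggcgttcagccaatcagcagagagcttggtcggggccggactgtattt
Mael: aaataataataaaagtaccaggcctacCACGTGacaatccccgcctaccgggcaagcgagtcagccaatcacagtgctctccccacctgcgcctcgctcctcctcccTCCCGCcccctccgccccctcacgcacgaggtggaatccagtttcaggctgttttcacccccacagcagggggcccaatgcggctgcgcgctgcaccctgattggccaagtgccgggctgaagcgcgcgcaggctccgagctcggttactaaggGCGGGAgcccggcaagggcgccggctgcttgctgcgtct
Stk31: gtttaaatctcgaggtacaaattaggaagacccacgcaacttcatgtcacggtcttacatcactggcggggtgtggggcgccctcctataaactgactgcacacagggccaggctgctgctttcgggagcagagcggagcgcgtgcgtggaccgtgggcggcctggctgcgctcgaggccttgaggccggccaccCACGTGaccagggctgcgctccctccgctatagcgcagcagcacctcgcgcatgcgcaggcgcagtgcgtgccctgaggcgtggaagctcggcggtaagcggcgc
Hormad1 and Sycp3, the genes of the meiotic chromosome axis, each carried 2 copies of CACGTG, and Mael carried 2 E2F-type hexamers. No motifs overlapped.

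The first group of members comprised the transcriptional and RNA-binding regulators. Sohlh2, a helix-loop-helix transcription factor of early spermatogonia and oocytes (chromosome 3, first listed exon at 54985966 to 54986036 in mm9, plus strand), was the most abundant member. At day 0 the WT library held 103.7 CPM and the RepB library 102.0 CPM. At days 5, 6, 7, 8 and 10 it measured 19.6, 11.03, 5.56, 4.52 and 4.17 CPM in WT. The matched RepB libraries gave 29.9, 31.0, 18.7, 13.3 and 7.52 CPM. The lines were thus level before differentiation, and RepB was the higher library on each later day, with the gap widest at day 7 (log2 RepB/WT of 1.66). Over the 5 days the log2 ratio of (CPM + 0.5) was 1.19 ± 0.47 (SD, n = 5 days), or 2.28-fold.

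Dazl encodes an RNA-binding protein that promotes translation in germ cells (chromosome 17, first listed exon at 50418718 to 50420636 in mm9, minus strand). Its day 0 levels were 10.8 CPM (WT) and 11.5 CPM (RepB). WT libraries of days 5, 6, 7, 8 and 10 held 1.92, 1.42, 0.628, 0.645 and 1.02 CPM, and RepB libraries held 3.50, 3.91, 1.61, 1.78 and 1.67 CPM. RepB was higher on all 5 days, by 0.87 ± 0.26 on the log2 scale (1.83-fold), and only the 3 latest RepB values lay within the WT range. The late totals behind these values were 78 counts in WT and 66 in RepB. Ddx4, the mouse vasa homologue and an RNA helicase of germ granules (chromosome 13, first listed exon at 113388541 to 113389239 in mm9, minus strand), began lower in RepB (8.68 CPM) than in WT (12.3 CPM). It went to 5.26, 2.37, 1.08, 0.774 and 0.407 CPM in WT and to 7.74, 4.33, 1.61, 2.67 and 1.39 CPM in RepB. The order of the lines at day 0 was therefore the opposite of that on all 5 later days, when the log2 ratio was 0.81 ± 0.37 (1.76-fold).

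The second group were genes of the meiotic chromosome axis. Hormad1 marks unsynapsed axes and is needed for synapsis and recombination (chromosome 3, first listed exon at 95363599 to 95363654 in mm9, plus strand). Day 0 gave 16.7 CPM (WT) and 13.6 CPM (RepB). At days 5, 6, 7, 8 and 10 it measured 7.62, 3.86, 1.97, 3.23 and 1.32 CPM in WT against 21.8, 11.04, 4.15, 3.85 and 2.23 CPM in RepB. The RepB library of day 5 stood at 160% of its own day 0, while the WT library of that day stood at 45.7%. The log2 ratio went from 1.45 at day 5 to 0.23 at day 8 and averaged 0.92 ± 0.53 (1.89-fold).

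Sycp3, a structural protein of the axial and lateral elements of the synaptonemal complex (chromosome 10, first listed exon at 87922332 to 87922457 in mm9, plus strand), behaved likewise at first. WT held 13.2 CPM at day 0 and then 10.8, 3.93, 1.61, 2.84 and 1.12 CPM. RepB held 11.7 CPM at day 0 and then 21.6, 9.50, 3.46, 1.48 and 3.34 CPM. RepB was higher on 4 of 5 days and lower at day 8, where its value rested on 5 counts, and the mean log2 ratio of 0.71 ± 0.83 was smaller than its own spread. Sycp3 overlaps Chpt1 on the opposite strand in RefSeq. Chpt1 was present at 9.26 CPM in WT at day 0 and 12.3 CPM at day 10, and the strand setting of the counting is not given in the sources used here, so the Sycp3 values are uncertain. Hormad1 overlaps Gm40097 and Stk31 overlaps Gm17060 in RefSeq, neither of which is a row of the table, so values of both, the allelic shares of Hormad1 included, carry the same limit.

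Mael and Stk31 belong to the piRNA and germ granule machinery. Mael, the mouse Maelstrom protein required for transposon silencing in germ cells (chromosome 1, first listed exon at 168131516 to 168131866 in mm9, minus strand), began at 10.5 CPM (WT) and 10.2 CPM (RepB). It went to 4.17, 1.35, 1.35, 1.68 and 0.712 CPM in WT and to 6.08, 5.73, 2.54, 2.67 and 0.835 CPM in RepB. RepB was higher on all 5 days, but the log2 ratio ranged from 0.14 at day 10 to 1.75 at day 6, with a mean of 0.73 ± 0.61 (1.66-fold). Stk31 encodes a Tudor-domain kinase-like protein of germ cells (chromosome 6, first listed exon at 49345603 to 49345683 in mm9, plus strand). Day 0 gave 8.03 CPM (WT) and 8.16 CPM (RepB), and later days 1.37, 0.609, 0.269, 0.258 and 0.407 CPM in WT and 2.21, 1.82, 0.461, 0.889 and 0.557 CPM in RepB. From day 7 each library held 2 to 4 reads of Stk31, so only days 5 and 6 carry its comparison (log2 ratios of 0.54 and 1.06).

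Mos, the kinase that activates the MAP kinase cascade in oocytes and holds them in metaphase of the second division (chromosome 4, first listed exon at 3797805 to 3799252 in mm9, minus strand), differed from the other members at day 0. Its level was 28.6 CPM in RepB (95% Poisson interval 26.0 to 31.4) and 15.96 CPM in WT (14.2 to 17.9), a log2 ratio of 0.82. WT then held 1.64, 1.15, 0.718, 0.645 and 0.407 CPM and RepB 3.87, 1.96, 2.77, 1.19 and 1.39 CPM. The later log2 ratio was 0.93 ± 0.37, but the constant added to each CPM value understates this ratio where levels are low. The fit across all genes, described below, gave Mos a log2 ratio of 1.25 ± 0.27 (SE) over days 5 to 10. The Mos level thus differed between the day 0 libraries too. The Poisson intervals cover counting error only, so with 1 library per line this cannot be told from library-to-library spread. Whether the later ratio differed from that of day 0 was not tested. Foxr1, a forkhead-family gene (chromosome 9, first listed exon at 44242317 to 44243392 in mm9, minus strand), was level at day 0 with 5.91 CPM (WT) and 5.96 CPM (RepB). It measured 5.21, 2.84, 1.88, 1.42 and 0.814 CPM in WT and 10.9, 7.69, 3.23, 3.56 and 2.51 CPM in RepB. Foxr1 had the most even ratio of the members that were higher in RepB on all 5 days, at 1.04 ± 0.25 (2.06-fold). Tex101, which encodes a surface glycoprotein of male germ cells (chromosome 7, first listed exon at 25453031 to 25453421 in mm9, minus strand), had 5 counts in each line at day 0. It held 3, 2, 1, 2 and 0 counts in the later WT libraries and 1, 1, 0, 0 and 0 in RepB, too few for any comparison.

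**Figure D1:**
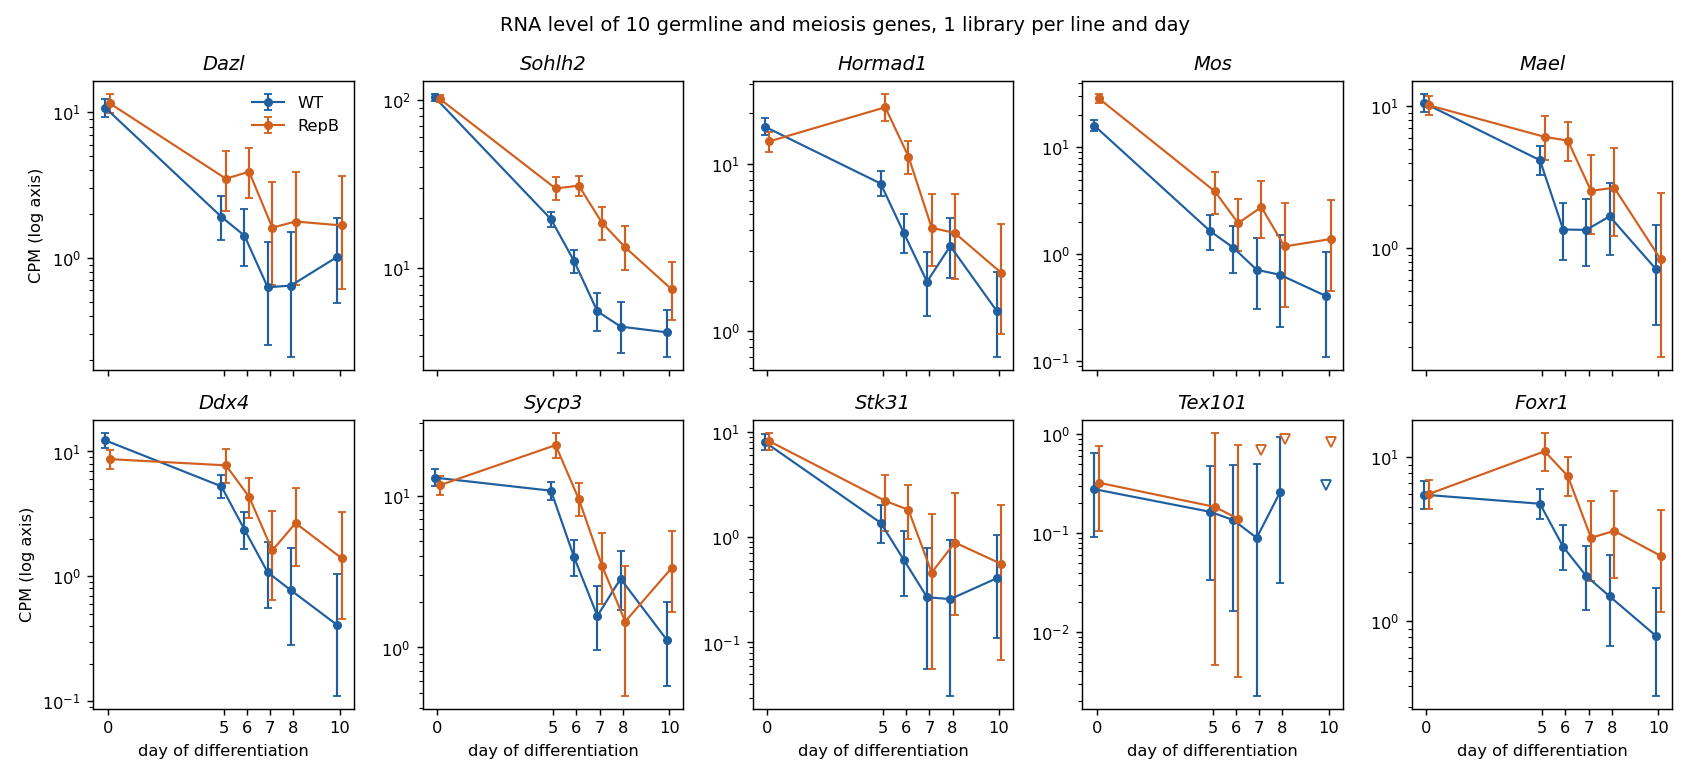
RNA level of each of the 10 genes (CPM, log axis) against day of differentiation, WT in blue and RepB in orange, 1 library per point, with exact 95% Poisson intervals (counting error only). Open triangles mark libraries with 0 counts, drawn at the 3-count limit. The lines start together for most genes, and the RepB points lie above the WT points on the later days except for Tex101 and for Sycp3 at day 8.

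Per kilobase of exon, so that genes can be compared, Sohlh2 led at day 0 in WT with 44.1 CPM per kb, followed by Sycp3 (11.7), Mos (11.02), Hormad1 (8.70) and Mael (6.82). Ddx4 (4.31), Dazl (3.63), Foxr1 (3.55) and Stk31 (2.48) were lower, and Tex101 (0.265) was near the limit of detection. With single libraries the order of close neighbours in this list cannot be told from library-to-library spread. Over days 5 to 10 the WT means ran from 0.123 (Tex101) to 3.82 CPM per kb (Sohlh2) and the RepB means from 0.0615 (Tex101) to 8.55 CPM per kb (Sohlh2). Bulk RNA of this kind cannot tell apart fewer cells that transcribe a gene and less RNA per cell.

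Summed over the 10 members, the day 0 level was 197.3 CPM (WT) and 200.7 CPM (RepB), a sum dominated by Sohlh2. The sum at days 5, 6, 7, 8 and 10 was 57.8, 28.7, 15.2, 16.3 and 10.4 CPM in WT and 107.7, 77.1, 38.5, 31.4 and 21.4 CPM in RepB. Taken gene by gene, 5 of 10 members were higher in RepB at day 0, and 10, 10, 9, 8 and 9 were higher at the later days. The median log2 ratio was -0.01 at day 0 and 0.66, 1.19, 0.81, 0.72 and 0.68 afterwards. RepB was higher on all 5 later days for 8 of the 10 members. Of all 15179 genes tested, 49.5% had a log2 ratio above 0 over days 5 to 10, and 1.51% were called higher in RepB. The share of all genes higher on each single day, or on all 5, was not computed. Nothing is read from the members' counts against these shares, since this contrast chose them. In the fit across all genes the 9 tested members had log2 ratios from 0.87 (Ddx4) to 1.25 (Mos).

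**Figure D2:**
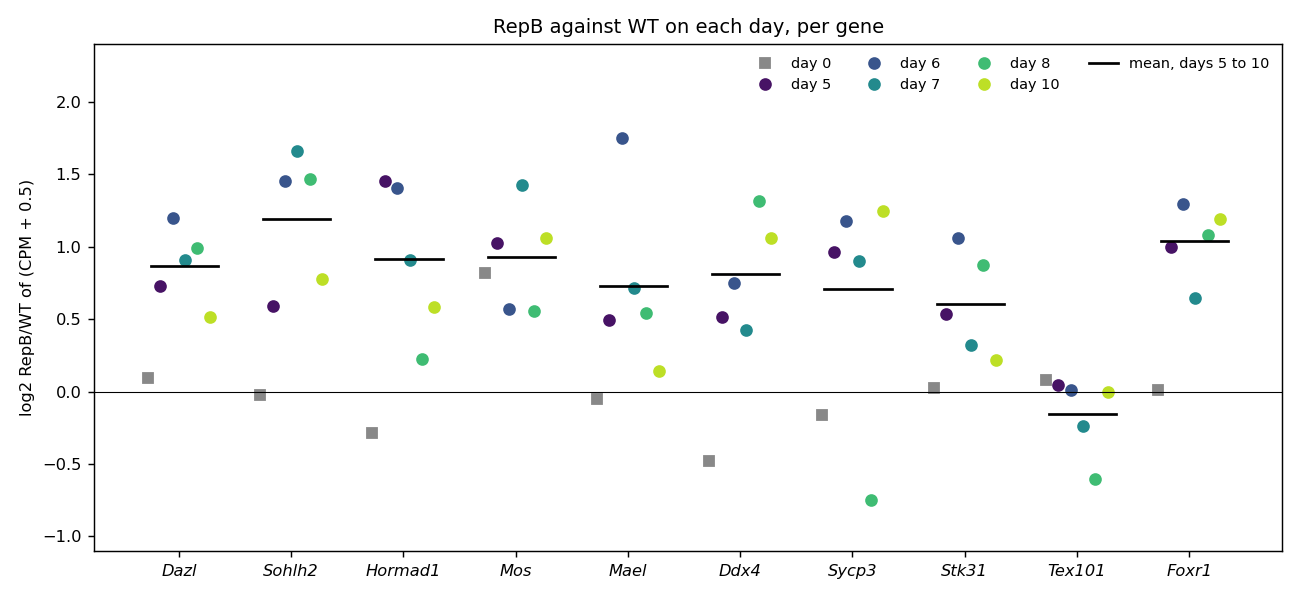
Log2 RepB/WT of (CPM + 0.5) for each gene, with day 0 as a grey square, days 5 to 10 as coloured circles and the mean of the 5 later days as a black line. The day 0 squares of 5 genes lie above 0 and of 5 below, with Mos highest at 0.82, and the later circles lie above 0 for 8 genes on every day.

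The change over time within a line was tested. It is not wholly independent of the choice of members, since choosing genes that are higher in RepB on the later days can lower the later WT level and raise that of RepB. Against day 0, the level over days 5 to 10 was lower in WT for 4 of the 9 tested members, where 6.15% of all genes were called lower and 3.89% higher. Mos fell by 4.08 ± 0.58 on the log2 scale (SE; edgeR quasi-likelihood test, Benjamini-Hochberg adjusted p = 0.00446), Dazl fell by 3.22 ± 0.57 (adjusted p = 0.0104), Sohlh2 fell by 3.51 ± 0.71 (0.0157) and Stk31 fell by 3.70 ± 0.77 (0.0175). The values of Ddx4 (-2.60, 0.125), Mael (-2.49, 0.0813), Hormad1 (-2.20, 0.169), Sycp3 (-1.68, 0.383) and Foxr1 (-1.26, 0.373) were also negative but did not pass. In RepB, Mos alone passed, with a log2 change of -3.65 ± 0.59 (adjusted p = 0.0113), where 3.03% of all genes were called lower and 1.75% higher. The other 8 values in RepB ran from -2.72 (Stk31, 0.0808) through -2.33 (Sohlh2, 0.0995) and -2.18 (Dazl, 0.0657) to -0.56 (Sycp3, 0.827) and -0.08 (Foxr1, 0.969). A call in WT and none in RepB does not show that the lines differ in this change. Without day 7 the WT calls of Sohlh2 (adjusted p = 0.0677) and Stk31 (0.0572) were lost, and Stk31 was also lost without day 6 (0.0598) or day 8 (0.0540). The RepB call of Mos was lost without day 6 (0.0515) or day 7 (0.0581), while Mos and Dazl kept their WT calls with any single day left out.

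Within days 5 to 10 most members went down. The slope, averaged over both lines, was negative for all 9 tested members and passed the test for 8, where 24.7% of all genes were called lower and 26.1% higher. Since the members were picked with results of these libraries in view, their slopes are not wholly independent of that choice. With all days in the fit the steepest were Ddx4 at -0.63 ± 0.10 log2 units per day (adjusted p = 0.000555), Sycp3 at -0.61 ± 0.13 (0.00326) and Hormad1 at -0.57 ± 0.09 (0.000594). Mael (-0.49 ± 0.10, 0.00240), Foxr1 (-0.49 ± 0.07, 0.000531), Sohlh2 (-0.44 ± 0.06, 0.000423), Stk31 (-0.42 ± 0.14, 0.0279) and Mos (-0.35 ± 0.09, 0.0108) also fell. Dazl, at 17.8% of day 0 by day 5 in WT, had a slope of -0.24 ± 0.10 that did not pass (0.0755). The members with the largest drop by day 5 were thus Dazl, Sohlh2, Mos and Stk31, at 10.3% to 18.9% of day 0 in WT, whereas Hormad1, Mael, Ddx4, Sycp3 and Foxr1 still stood at 39.5% to 88.1% of day 0 then. In RepB the first 4 stood at 13.5% (Mos) to 30.4% (Dazl) at day 5. Of the others in RepB, Mael stood at 59.8% and Ddx4 at 89.2%, while Hormad1 (160%), Foxr1 (182%) and Sycp3 (184%) were above their day 0 level, and Foxr1 still was at day 6 (129%). Sohlh2 and Dazl were slightly higher at day 6 than at day 5 in RepB. The slopes of the single lines had the same sign in every tested member, for example -0.45 in WT and -0.69 in RepB for Hormad1 and -0.77 and -0.49 for Ddx4, and their difference was not tested. Without day 5, the slope calls of Mos (0.152), Sycp3 (0.0842) and Stk31 (0.294) were lost, and Stk31 was lost also without day 6 (0.0737) or day 8 (0.0650). Without day 10, Sycp3 was the steepest at -1.03, Stk31 moved to -0.76 and Dazl to -0.51, and all 9 passed, Dazl with an adjusted p of 0.0319.

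**Figure D3:**
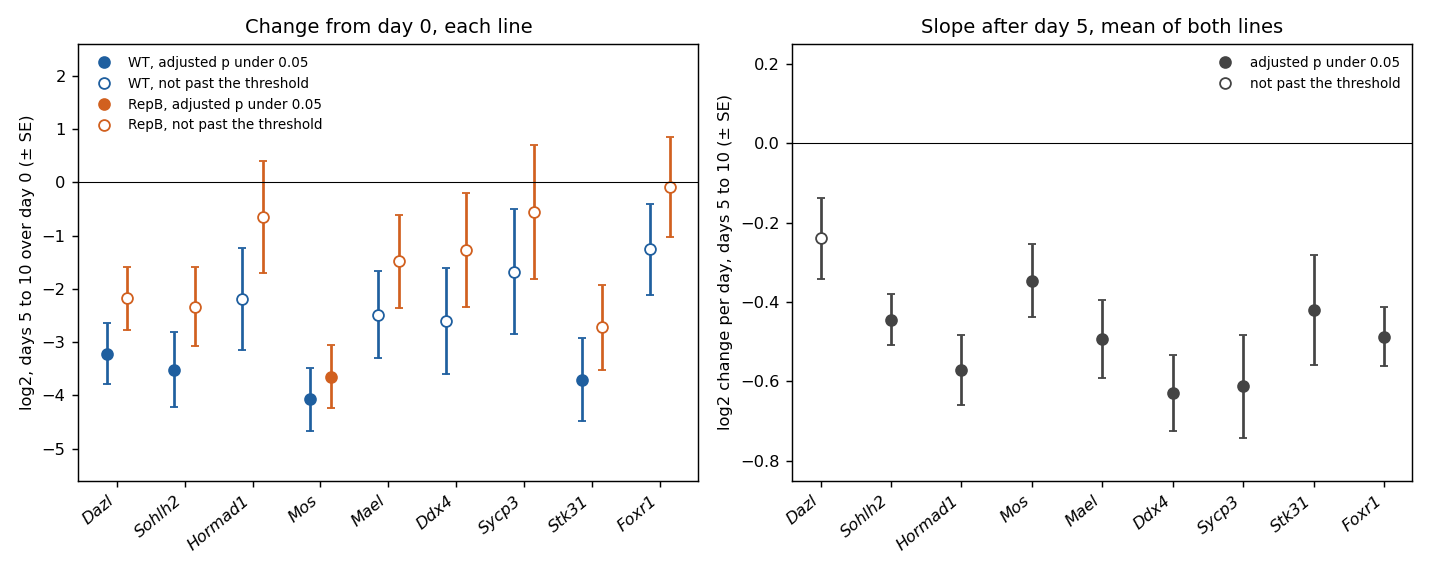
Left, log2 change of days 5 to 10 against day 0 for the 9 tested genes in WT (blue) and RepB (orange). Right, log2 slope per day over days 5 to 10, mean of both lines. Bars are standard errors and filled points have an adjusted p under 0.05. WT points lie below RepB points for every gene, and only Dazl misses the threshold on the right.

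The cross allowed reads to be split between the cas (CAST/Ei) and mus (129/Sv/Jae) alleles, a readout that the choice of genes did not use. Over all 12 libraries, 6 members had no cas count. These were Mos with 0 of 128 allelic counts, which allows a cas share of up to 2.34%, Dazl with 0 of 100 (up to 3%), Sycp3 with 0 of 67 (up to 4.48%), Stk31 with 0 of 39 (up to 7.69%), Mael with 0 of 23 (up to 13.04%) and Tex101 with 0 of 4. Sohlh2 had 6 cas counts of 1967, a share of 0.305% (exact 95% interval 0.112% to 0.663%). The neighbours of most of these genes were just as skewed at day 0. Within 1 Mb, the median cas share of other genes was 0% around Dazl (3 genes) and Stk31 (19 genes), 0.280% around Mael (14), 0.332% around Sycp3 (9), 0.738% around Sohlh2 (10) and 1.02% around Mos (8). Around Ddx4 and Foxr1 it was 47.2% (10 and 31 genes). A cas share near 0 was thus also the median of the genes around 6 members, and the share of these members cannot be told apart from that of their regions. Around Tex101 the median was 46.5% over 44 genes, and its own 4 allelic counts set no useful limit.

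Hormad1, Ddx4 and Foxr1 had substantial counts assigned to both alleles. Hormad1 had a cas share of 47.9% at day 0 in WT (exact 95% interval 39.4% to 56.4%, 142 allelic counts) and 43.7% in RepB (33.9% to 53.8%, 103 counts). Over days 5 to 10 it was 31.9% (24.3% to 40.3%, 141 counts) in WT and 25% (18.0% to 33.1%, 136 counts) in RepB. The pooled later share lay below the day 0 share in both lines, but 70 of the 136 later RepB counts came from day 5. By day, the RepB share was 18.6% (70 counts), 37.2% (43), 0% (12), 42.9% (7) and 50% (4), with no steady order, and the difference from day 0 was not tested. Hormad1 stood apart from its surroundings, where the median cas share of 38 neighbours was 0.399% and 30 of them were below 5%. The highest share among these neighbours was 27.3%. Whether the cas counts of Hormad1 were assigned to the right allele was not tested, so its shares are uncertain. Ddx4 had a share of 57.7% (45.4% to 69.4%) and 64.7% (50.1% to 77.6%) at day 0 in WT and RepB, and 36.4% (22.4% to 52.2%) and 42.9% (24.5% to 62.8%) later. Foxr1 was between 41.9% and 59.2% in all 4 groups, and their intervals overlapped. Change between RepB and WT in the cas:mus ratio over days 5 to 10 was not detected for Hormad1 (log2 -0.39 ± 0.53, SE; edgeR quasi-likelihood test, adjusted p = 0.960) or Foxr1 (0.32 ± 0.50, adjusted p = 0.963), where 1.61% of all genes passed. The sign for Hormad1 turned (0.30) without day 5. Ddx4 was below the minimum mean of 20 allelic counts. Intervals cover counting error only, since no molecular identifiers are named.

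**Figure D4:**
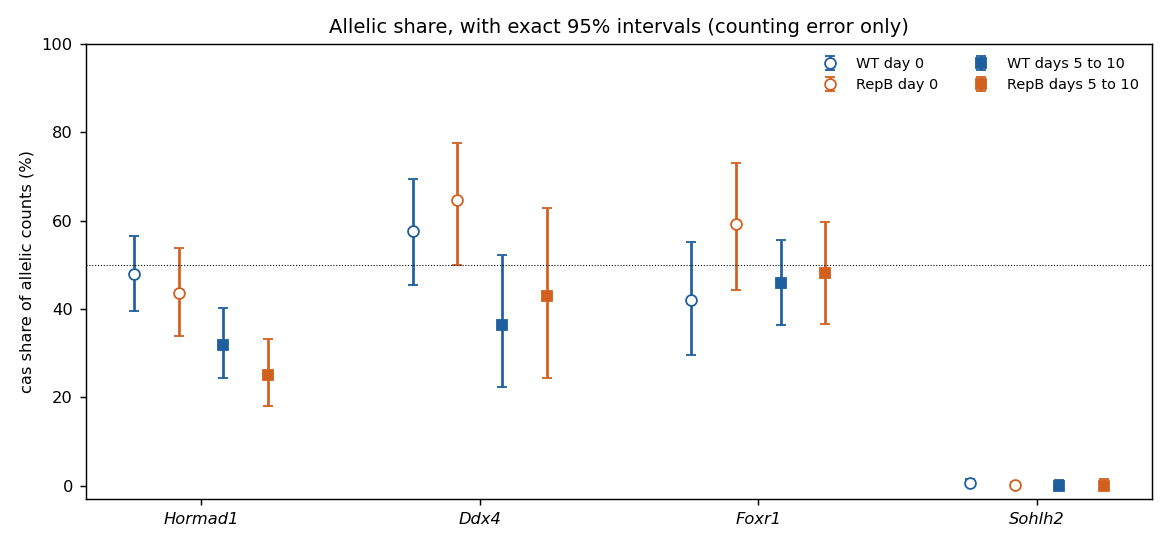
Share of allelic counts from the cas allele (percent) for Hormad1, Ddx4, Foxr1 and Sohlh2 at day 0 (open circles) and over days 5 to 10 (filled squares), with exact 95% intervals for counting error. Hormad1, Ddx4 and Foxr1 lie between 25% and 64.7%, and Sohlh2 lies below 1% in every group.

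Other genes of the germ line, taken from 7 lists of 98 genes that held none of the members, gave a wider view. These lists too were chosen with earlier results of the same libraries known, so their counts are not independent support for the members' values. Of the 61 that passed the filter, 9 were called higher in RepB and 0 lower on the later days (25 and 1 at an unadjusted p under 0.05; edgeR quasi-likelihood test, adjusted over all genes; 14.8%, where 1.51% of all genes were called higher and 0.771% lower), and their median log2 ratio was 0.35 against -0.00 over all genes. The 9 were Smc1b, Tex19.1, Tdrd12, Tex14, Tuba3a, Ooep, Dppa3, Prdm14 and Tfap2c. Smc1b, the meiotic cohesin subunit, had the smallest adjusted p. Its mean over the later days was 18.8 ± 11.5 CPM for WT and 35.5 ± 22.8 CPM for RepB (SD, n = 5 days), a log2 ratio of 0.90 ± 0.13 (SE, adjusted p = 0.00562). In the piRNA list 2 of 14 tested genes were higher in RepB, Tdrd12 (0.96, adjusted p = 0.0456) and Tex19.1 (0.89, 0.0413). In the list of germ cell regulators 2 of 12 were higher, Tex14 (0.81, 0.0321), which forms intercellular bridges in the testis, and Tuba3a (0.70, 0.0440), an alpha-tubulin of testis whose reads may be shared with its near-identical relative Tuba3b. Of 6 regulators of primordial germ cells 3 were higher, Dppa3 (0.91, 0.0240), Prdm14 (0.80, 0.0337) and Tfap2c (0.62, 0.0160), all of which ES cells also use. Of 8 oocyte genes Ooep was higher (0.79, 0.0337), and 0 of 13 genes of meiotic recombination (2 at an unadjusted p under 0.05, 0 in DESeq2 and limma-voom) and 0 of 1 spermatid gene passed (0 by each of these). The list of synaptonemal complex, axis and cohesin genes had Smc1b alone, 1 of 7.

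These 9 calls were sensitive to single days and to the method. In limma-voom Tex19.1 (adjusted p = 0.0716), Tex14 (0.0576) and Tuba3a (0.0719) did not pass, and with libraries thinned to equal depth Tex14 (0.0516), Prdm14 (0.0516) and Tuba3a (0.0908) did not. With day 5, 6, 7, 8 or 10 left out, 5, 1, 1, 11 and 2 genes of the lists were called higher, and Smc1b alone of the 9 kept its call each time. With the day term left out of the fit none of the 9 kept its call, Smc1b included (log2 0.92). Against day 0, 13 of the 61 genes were lower and 0 higher in WT over days 5 to 10 (21.3% lower, where 6.15% of all genes were called lower and 3.89% higher, median log2 -1.81 against 0.10 over all genes), among them Stag3, Hormad2, Stra8, Tex14, Prdm14 and Piwil2. In RepB 4 were lower (6.56%, median -1.13 against 0.07), Stag3, Rpl10l, Tuba3a and Tuba3b. A gene could pass the low-count filter on its day 0 level alone. For genes that are low later, a lower call against day 0 is therefore not independent of the filter. Stra8, for example, had 10.99 CPM at day 0 and a later mean of 0.570 CPM in WT. Leaving out single days moved the WT count between 2 and 26 and the RepB count between 0 and 12. Within days 5 to 10, 41 of the 61 fell and 3 rose (Lhx8, Tdrd7 and Tdrkh), where 24.7% of all genes were called lower and 26.1% higher, with a median slope of -0.42 per day against -0.00 over all genes.

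Genes of PRC1.6 and of H3K9 and DNA methylation were compared in the same fit. The second list also held Tet1 and Tet2, which act in DNA demethylation. Of 14 PRC1.6 subunits, 0 passed in RepB against WT in either direction (edgeR; 1 at an unadjusted p under 0.05, 0 in DESeq2 and limma-voom; median log2 0.00), and their summed level over the later days ran from 1191 to 1606 CPM in WT and from 1172 to 1713 CPM in RepB. Of 13 genes of H3K9 and DNA methylation, 1 was higher and 0 lower (edgeR; 2 higher and 1 lower at an unadjusted p under 0.05). This was Dnmt3l, the cofactor of the de novo DNA methyltransferases and itself abundant in naive ES cells, whose later mean was 62.1 ± 43.9 CPM for WT and 105.7 ± 65.2 CPM for RepB (SD, n = 5 days; log2 0.78 ± 0.12, adjusted p = 0.00691). Without day 7 its adjusted p was 0.0541. The de novo methyltransferase Dnmt3b went the other way without passing (log2 -0.37, edgeR adjusted p = 0.156). Its later mean was 660.3 ± 549.3 CPM for WT and 470.5 ± 395.2 CPM for RepB.

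Markers of cell states were compared in the same fit, and their lists did not all go in the same direction. Of 15 markers of naive ES cells, 12 were higher in RepB and 0 lower, with a median log2 ratio of 0.73, and Zfp42 (Rex1), a widely used marker of naive cells, differed by 0.90 ± 0.09 (SE, adjusted p = 0.0016). Their summed level over days 5 to 10 ran from 376.6 to 1388 CPM in WT and from 517.3 to 1902 CPM in RepB, and RepB was the higher library on all 5 days. Without day 6 or day 7 the count of naive markers called higher was 5 and 4, and without day 10 it was 8. No general ES marker (0 of 5; 2 higher at an unadjusted p under 0.05, 1 in DESeq2, 0 in limma-voom) and no primed epiblast marker (0 of 5; 4 lower at an unadjusted p under 0.05, 0 in DESeq2 and limma-voom) passed in edgeR. Of 6 neural markers 4 were lower in RepB, but 0 were without day 7, 1 without day 10 and 2 at equal depth or without day 6, and DESeq2 lost Map2 (0.157). Of 5 visceral endoderm markers 3 were higher, but 0 without day 7 or day 10, 2 without day 5, 6 or 8, and DESeq2 lost Apob (0.112). Of 8 fibroblast and feeder markers 2 were higher, Col3a1 and Postn, and 0 without day 6 or day 7, and DESeq2 called neither (0.214 and 0.157). Their summed later level ran from 67.5 to 9317 CPM in WT and from 53.8 to 14062 CPM in RepB. The summed level of spermatid genes was 0.516 to 1.32 CPM in WT and 0.278 to 1.11 CPM in RepB over the later days, with Prm2, Acrv1, Smcp and Tssk1 at 0 in every library. Markers of the 2-cell-like state summed to 0.203 to 3.45 CPM in WT and 1.11 to 4.24 CPM in RepB, with Tcstv1 and Tcstv3 at 0. The oocyte genes Oosp1 and Oog1 were at 0 throughout. The part of the naive, neural, endoderm and fibroblast markers in the members' difference was not tested.

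**Figure D5:**
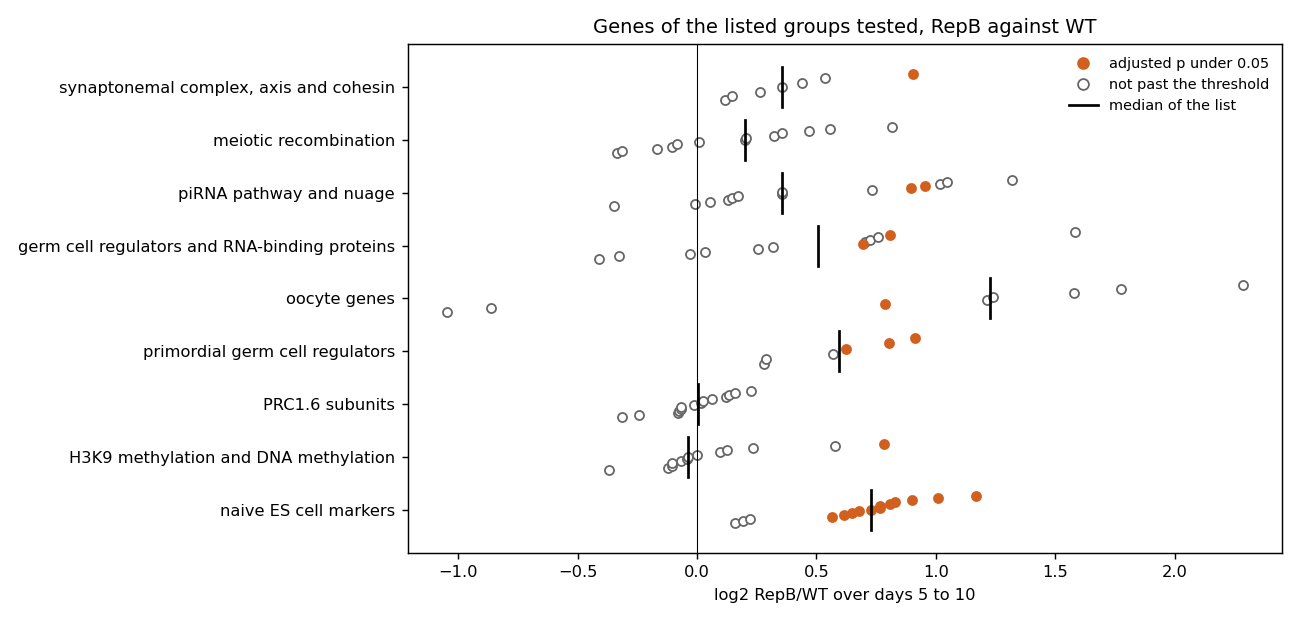
Log2 RepB/WT over days 5 to 10 for each tested gene of 9 lists, filled where the adjusted p is under 0.05, with the median of each list as a black line. The 6 germline lists plotted, without the spermatid list and its single tested gene (-0.32), have medians from 0.20 to 1.23, the PRC1.6 subunits sit around 0 with no call, and the naive ES cell markers have 12 of 15 genes called and a median of 0.73. The median of 1.23 is that of the oocyte list, with 1 of 8 genes called. Later means of its genes Nlrp14, Zp3 and Npm2 were at most 1.41 CPM in either line, near the 3-count limit.

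Across the 12 libraries each member was compared with the mean standardized log2(CPM + 0.5) of the other members. Pearson's r was 0.96 for Ddx4, Mael and Sohlh2, 0.95 for Hormad1, 0.94 for Stk31, 0.92 for Dazl, 0.88 for Mos and Sycp3, 0.84 for Foxr1 and 0.66 for the barely detected Tex101. Among 11401 other genes with a mean of at least 5 CPM, those most like the mean of the members were Mylpf (0.988), Trap1a and Fmr1nb (both 0.987, both X-linked), and Gm6083, Ooep and Tex19.1 (all 0.986). Ooep is an oocyte protein of the subcortical maternal complex, and Tex19.1 acts against transposons in germ cells. The 15 markers of naive ES cells were spread widely on this scale, with a median marker at Nr5a2 (0.951), from Zfp42 at 0.983 (rank 11) and Fbxo15 at 0.977 (rank 18) to Klf5 at 0.839 (rank 804), Klf4 at 0.599 (rank 2502) and Tbx3 at -0.098 (rank 5781). The WT values of Mylpf were 47.5, 15.6 and 4.68 CPM on days 0, 5 and 10, and the RepB values 56.3, 23.6 and 6.13 CPM. The 12 points share a common fall over time, so these correlations are a description and carry no test.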

How the data were processed

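RNA was measured in 12 libraries (WT and RepB ES cells, 6 days each), and 21 further samples of the series were not analysed here. The values are counts per gene as deposited by the authors, whole numbers without normalization, with separate columns of counts assigned to the cas and mus alleles and a column of summed exon length. Per the submitters' processing notes, Novoalign, TopHat, SAMtools, bedtools and featureCounts were used with mm9, and their versions, roles and strand setting are not given in the sources used here. The table held 6 count columns with no matching RNA sample, which were not used. Symbols are those of the table, and positions are the first exon it lists.

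Counts were fitted in R 4.3.3 with edgeR 4.0.16 (TMM scaling, filterByExpr, quasi-likelihood F test), with Benjamini-Hochberg adjustment across the whole set of genes in each fit and a cutoff of 0.05. RepB against WT used day as a factor with a RepB effect at day 0 and over days 5 to 10 (4 residual degrees of freedom). Change from day 0 used 4 groups of line and stage (8), slopes used the 10 later libraries (6), and alleles used library blocks for genes averaging 20 or more allelic counts (8). Since each line was followed once, with days as the spread, a p does not extend to other cultures. Shares carry exact Clopper-Pearson and levels exact Poisson 95% intervals, and a count of 0 is bounded by 3 counts. Log2 ratios per day used a pseudocount of 0.5 CPM, which understates the change of low genes. Library depth ranged from 3594551 to 17773138 counts. The fits were also run on simulated data, in which genes given no change had the same expected expression on all days. In these data many genes change between days, so that run does not show how the fits behave here. DESeq2 1.42.0 and limma 3.58.1 (voom) were alternatives.

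The members, the gene lists and the comparisons were chosen with earlier results of these data known. Named are all members, list genes that passed (up to 8 per list by p), up to 4 per list by mean CPM, and the 6 genes most like the members' mean. The naive markers with ranks, the markers at 0, Oosp1 and Oog1 are named beside their lists, and of the genes that passed against day 0 in WT 6 are named as examples.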

Additional observations from a re-analysis of the deposited data

How the results depend on the processing

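The log2 RepB/WT of the 9 tested members ran from 0.59 to 1.45 over the 11 alternatives, which is no sign of stability since this contrast chose them. Of the members' values under the alternatives, 77 kept direction and side of the threshold for WT against day 0, 8 gained and 5 lost a call. For RepB 72 kept both, 12 gained, 2 lost and 4 reversed, and for slopes 72 kept both, 1 gained and 6 lost. Counts over all genes depended more on the settings. RepB against WT gave 346 genes (229 higher, 117 lower), 592 without the low-count filter, 38 to 744 with 1 day left out and 0 without the day term (edgeR quasi-likelihood test, with 297 genes under 0.05 before adjustment; this was not repeated in DESeq2). DESeq2 called 357, 272 higher and 85 lower. The other germline genes called higher numbered 9, against 0 without the day term (edgeR, 2 at an unadjusted p under 0.05) and 1 to 11 with a day left out. Against day 0, WT gave 1524 genes, 2769 in DESeq2, 8356 with day as a factor and 352 to 2129 with a day left out. The members called lower there numbered 4, against 9 with day as a factor and 2 to 7 with a day left out. RepB gave 725 genes, 1947 in DESeq2, 7208 with day as a factor and 114 to 1097 with a day left out. The members called lower in RepB numbered 1, against 2 in DESeq2, 2 at equal depth, 8 with day as a factor and 0 to 4 with a day left out. With day as a factor, days are no longer part of the spread. Slopes gave 7699 genes and 5515 to 7779 with a day left out, with 8 members lower against 5 to 9. The cas share gave 166 genes and 129 to 207 with a day left out. The sign turned for the RepB change of Foxr1 from day 0 (-0.08), to 0.12 at equal depth and 0.06, 0.07 and 0.11 without day 7, 8 or 10 (range -0.51 to 0.11 with a day left out), and for the cas share of Hormad1, to 0.30 without day 5 (range -0.82 to 0.30). The cause was not tested. A pseudocount of 2 CPM moved the per-day log2 ratios of Dazl to 0.51, Mos to 0.52 and Foxr1 to 0.73. RepB libraries of days 7 to 10 hold few reads of most members other than Sohlh2, which limits comparisons on single late days.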
